A study of Sus scrofa with 12 samples.

Results

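The genes described here code for the enzymes that cut the muscle extracellular matrix, the inhibitors that hold those enzymes in check, and the enzymes that cross-link the matrix. Of 10 such genes sought in the deposited gene counts (MMP2, MMP14, MMP19, ADAMTS1, TIMP1, TIMP2, TIMP3, LOX, LOXL1 and LOXL2), 9 were found by their symbol among the 25880 genes listed, and TIMP2, to which no identifier was paired, was not analyzed here. The 9 genes were chosen by name and function, not by their expression, although earlier results of these counts were known at that time. RNA-seq was carried out on longissimus dorsi (LD), the loin muscle, of 12 castrated male Iberian pigs of a closed population, which had been finished outdoors on acorns and grass, with 1 library per pig. There were 6 pigs in each group, High MB and Low MB, with no full siblings, and they were chosen for high and for low estimated breeding values for myoglobin content, and the labels give no treatment that differs between them. Myoglobin content averaged 2.48 ± 0.0657 mg/g in High MB muscle and 1.39 ± 0.147 mg/g in Low MB muscle (SD, n = 6 each). As the pigs were selected on breeding value, myoglobin itself was not manipulated, and anything inherited or raised along with it cannot be told apart from it.

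Skeletal muscle fibers are wrapped in connective tissue rich in fibrillar collagen. Matrix metalloproteinases such as the secreted gelatinase MMP2 and the membrane-bound collagenase MMP14 degrade it, and MMP14 also activates the precursor of MMP2. Tissue inhibitors of metalloproteinases (TIMPs) block these enzymes, and lysyl oxidases join collagen and elastin chains into insoluble fibers, a step that is linked to the toughness of meat.

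Each library gave between 38914271 and 91318334 gene counts. A depth of at least 59227608 was reached by 5 deep libraries (High MB 4 and 6, Low MB 1, 5 and 6), and the 7 standard ones had at most 40001432, so differences were also computed within each class. Expression is given as CPM, that is, gene counts scaled by library size and a TMM factor, and log2 FC compares the High with the Low MB group. The muscle label was checked first, and the 4 fiber markers with a row (ACTA1, CKM, TNNT3 and DES) summed to between 37700 and 115000 CPM in each pig. On the first principal component over all genes, High MB pig 2 was at -71.1, Low MB pig 4 at -37.7 and Low MB pig 1, on the other side, at 38.3, while the remaining pigs were between -3.4 and 14.1. Results on the 9 genes were recomputed without High MB pig 2 and Low MB pig 4 together and without each pig alone, and other genes whose difference moved strongly when 1 pig was left out are named with that pig.

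Counts per pig were between 119 (MMP19) and 11494 (TIMP3), so that 9 of the 9 genes were kept by the edgeR filter for low expression. The mean was higher in the High MB group for each of the 9 genes, with a median log2 fold change (log2 FC) of 0.51 against -0.02 for the 13373 genes tested, of which 46.9% were higher. None of these differences was called. At the limits used by the study (log2 FC beyond 0.58 in either direction, false discovery rate under 0.10), edgeR's quasi-likelihood test called 0 of the 9 genes and 0 (0%) of the genes tested, and DESeq2 called 0 of the 9 and 29 of all genes. At an unadjusted edgeR p-value under 0.05 were 4 of the 9 (MMP2, MMP14, TIMP1 and LOX), all higher in the High MB group, where 8.46% of the genes tested passed it (5.33% higher and 3.13% lower). Of the 1132 genes at that limit 63.0% were higher in the High MB group, a share that was 82.0% with upper quartile factors and 92.8% with library size alone. The spread between pigs was wide, as the biological coefficient of variation had a median of 29.1% over the 9 genes and 23.7% over the genes tested.

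**Figure D1:**
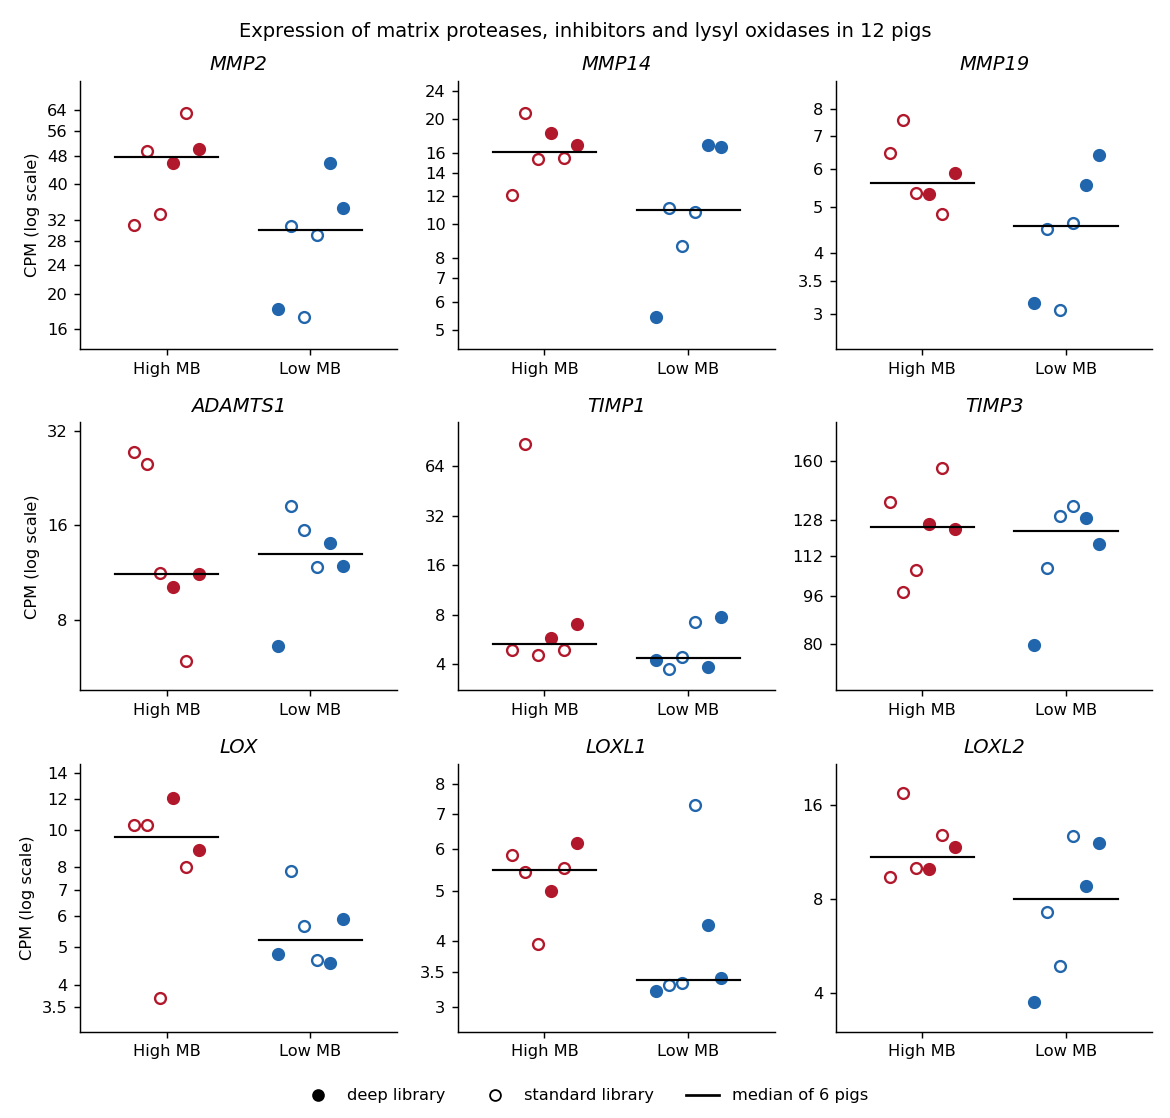
Expression of the 9 genes in CPM on a log scale, 1 point per pig, with filled points for deep and open points for standard libraries and a line at the median of the 6 pigs of each group. The groups overlapped for each gene, and a single point, High MB pig 2 at 87.6 CPM, lay far above the others for TIMP1.

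MMP2 (ENSSSCG00000002829), the gelatinase that degrades denatured collagen and basement membrane collagen, spans 30059247 to 30087031 of chromosome 6 (RefSeq, Sscrofa11.1, as for all positions given). Its expression was 31.0 to 62.8 CPM (median 47.7) in High MB muscle, against 17.3 to 45.7 CPM (median 29.9) in Low MB muscle. The groups overlapped, with 4 High MB pigs above the whole other group and the lowest 4 pigs all of the Low MB group. MMP2 had a log2 FC of 0.63 (standard error 0.24), an edgeR p-value of 0.0169 and an adjusted p-value of 0.563. An exact two-sided permutation test of its log2 CPM gave p = 0.0303, a limit of 0.05 that 9.09% of all genes tested passed in the same test. The log2 FC was 0.59 among deep and 0.79 among standard libraries, and it stayed between 0.52 and 0.81 with each pig left out in turn, with an unadjusted p-value under 0.05 in 12 of the 12 fits.

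MMP14 (ENSSSCG00000002039), the membrane-anchored collagenase that activates MMP2, lies on chromosome 7 from 76174502 to 76185931. It had 12.1 to 20.8 CPM (median 16.1) in High MB muscle, against 5.42 to 16.8 CPM (median 10.9) in Low MB muscle. Low MB pigs 5 and 6, both deep libraries, reached the level of the High MB pigs, whereas the other 4 Low MB pigs were below all of them. The log2 FC of MMP14 was 0.51 (standard error 0.23), with an edgeR p-value of 0.0476 and an adjusted p-value of 0.582 (exact permutation test, p = 0.0411). Over the 12 fits without 1 pig it was between 0.36 (without Low MB pig 1) and 0.64, and its p-value stayed under 0.05 in 3 of the 12 fits. Leaving out both High MB pig 2 and Low MB pig 4 gave a log2 FC of 0.43.

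MMP19 (ENSSSCG00000000368), a secreted protease of basement membrane components, lies on chromosome 5 from 21279514 to 21285943. It was expressed at a low level, 4.84 to 7.58 CPM (median 5.61) in High MB muscle, against 3.05 to 6.41 CPM (median 4.57) in Low MB muscle. Again Low MB pigs 5 and 6 were within the range of the High MB pigs and the other 4 were below it. MMP19 had a log2 FC of 0.37 (standard error 0.20, edgeR p = 0.0747), and by class 0.20 (deep) and 0.58 (standard), with an exact permutation p = 0.0671 over all 12 pigs.

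ADAMTS1 (ENSSSCG00000012026), a secreted protease that cuts the large proteoglycans versican and aggrecan, lies on chromosome 13 from 190277175 to 190285957. The Low MB pigs had between 6.63 and 18.4 CPM (median 13.0). In the High MB group the values were between 5.94 and 27.4 CPM with a median of 11.2, and both the lowest pig (High MB pig 5) and the highest pair of the 12 (High MB pigs 1 and 2, at 27.4 and 25.1 CPM) were found there. Its log2 FC of 0.22 (standard error 0.34, adjusted p = 0.884 in edgeR) turned to -0.03 without High MB pig 1 and was 0.01 without High MB pig 2 and Low MB pig 4, and the median of the High MB group was the lower of the pair. RefSeq places another gene, LOC110256366, on the opposite strand, which shares 168 bases (4.19%) of the exonic length of ADAMTS1, and the strand setting of the counting is not given in the sources used here.

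**Figure D2:**
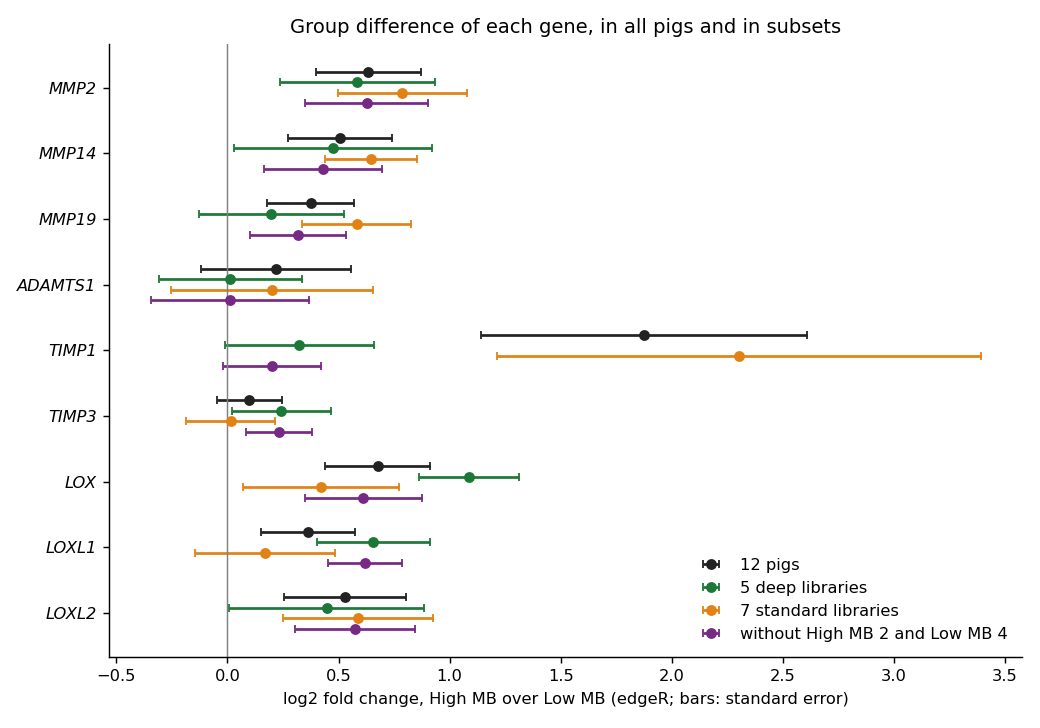
Log2 fold change of each gene between the High and Low MB groups, with bars of 1 standard error, from edgeR fits to all 12 pigs, to the 5 deep libraries, to the 7 standard libraries and to the 10 pigs other than High MB 2 and Low MB 4. TIMP1 was at 1.87 with all pigs and at 0.20 without that pair, while MMP2 was between 0.59 and 0.79 in the 4 fits.

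TIMP1 (ENSSSCG00000012277), a secreted inhibitor of most matrix metalloproteinases that is known to be induced by inflammatory signals, lies on chromosome X from 42103251 to 42106289, inside a region of SYN1 on the opposite strand, with which it shares 0 exonic bases. In High MB pig 2 it reached 87.6 CPM, from 4220 counts. The other 5 High MB pigs had between 4.54 and 7.05 CPM, and the Low MB pigs had between 3.73 and 7.76 CPM (median 4.35). TIMP1 thus had the widest spread of the 9 genes, 23.5-fold from the lowest to the highest pig, and its coefficient of variation of 80.3% lay at percentile 99.1 of the genes tested. The log2 FC of 1.87 (standard error 0.73, adjusted p = 0.563 in edgeR) was 0.08 without High MB pig 2, and the unadjusted p-value then was no longer under 0.05. Among the deep libraries, to which that pig does not belong, the log2 FC was 0.32. DESeq2 with its defaults gave no p-value for TIMP1, and the exact permutation test gave p = 0.323.

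Another lysyl oxidase, LOXL4, was also far higher in High MB pig 2 than in the other pigs. The 3 genes with the profile most like that of TIMP1 over the 12 pigs were high there too, which the choice by r largely fixed, since the spread of TIMP1 came mostly from that pig. LOXL4 had a log2 FC of 1.75 (adjusted p = 0.615 in edgeR) that became -0.87 without High MB pig 2, lower at an unadjusted edgeR p-value under 0.05. It had 75.5 CPM in High MB pig 2 and between 1.79 and 9.55 CPM in the other 11. CYP1B1, a cytochrome P450 (Pearson r = 0.96 with TIMP1, n = 12), had 31.1 CPM against 1.28 to 4.56 CPM in the other pigs. It kept an r of 0.93 without High MB pig 2 and Low MB pig 4. SLC5A6, a vitamin transporter (r = 0.96), and SPSB1 (r = 0.95) had 46.1 and 34.5 CPM in High MB pig 2, against at most 22.4 and 4.97 CPM elsewhere, but their r with TIMP1 was 0.38 and 0.35 without the pair of pigs. PLAU, the urokinase that activates plasminogen, had 36.8 CPM in High MB pig 2 and between 4.55 and 10.7 CPM in the other pigs. The 6 macrophage markers summed to 109 CPM in that pig and to between 20.8 and 55.4 CPM in the others, while the fiber markers had their lowest sum, 37700 CPM, there. The part of either in the TIMP1 level was not tested.

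**Figure D3:**
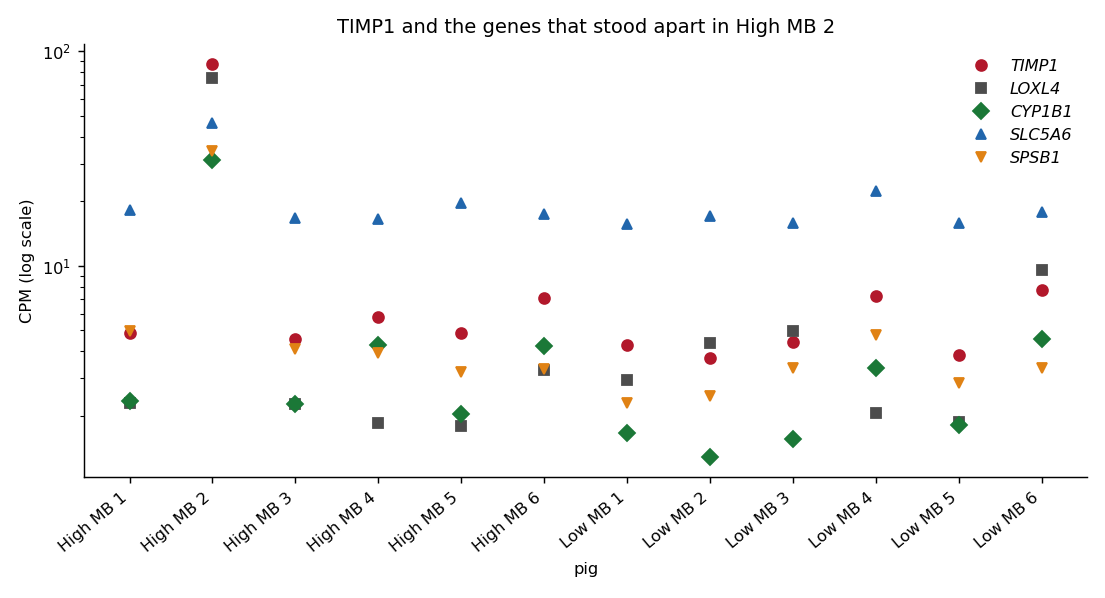
CPM on a log scale of TIMP1, LOXL4, CYP1B1, SLC5A6 and SPSB1 in each of the 12 pigs. Each of the 5 genes was highest in High MB pig 2, from 31.1 CPM for CYP1B1 to 87.6 CPM for TIMP1.

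TIMP3 (ENSSSCG00000031866), the inhibitor that binds to the matrix itself, lies on chromosome 5 from 12185816 to 12242599, inside SYN3 on the opposite strand and with 0 shared exonic bases. It was 97.7 to 156 CPM (median 125) in High MB muscle, against 79.9 to 135 CPM (median 123) in Low MB muscle. The groups covered nearly the same range, and TIMP3 varied least of the 9 genes between pigs, with a 1.96-fold range. Its log2 FC was 0.10 (standard error 0.15, edgeR p = 0.507), and by class 0.24 (deep) and 0.01 (standard), with an exact permutation p = 0.532 over the 12 pigs.

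LOX (ENSSSCG00000014232), the founding lysyl oxidase that cross-links collagen and elastin, lies on chromosome 2 from 125595115 to 125607026, overlapping LOC100525452 on the opposite strand, with 0 shared exonic bases. Its expression was 3.69 to 12.1 CPM (median 9.58) in High MB muscle, against 4.53 to 7.85 CPM (median 5.22) in Low MB muscle. High MB pig 3 was the lowest of the 12 pigs, while the other 5 of its group exceeded every Low MB pig. LOX had a log2 FC of 0.68 (standard error 0.24) with an edgeR p-value of 0.0123 and an adjusted p-value of 0.563. The exact permutation test gave p = 0.0519. The log2 FC was 1.09 among deep and 0.42 among standard libraries, where High MB pig 3 belongs. Without that pig it was 0.83, and it was between 0.57 and 0.83 over the 12 fits that leave a pig out, each with an unadjusted p-value under 0.05.

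LOXL1 (ENSSSCG00000001914), a lysyl oxidase known for elastic fibers, lies on chromosome 7 from 59481410 to 59505161. It was 3.95 to 6.16 CPM (median 5.47) in High MB muscle, against 3.22 to 7.28 CPM (median 3.37) in Low MB muscle. Low MB pig 4 was the highest of all 12 pigs at 7.28 CPM, and the next Low MB pig was at 4.30 CPM. The log2 FC of 0.36 (standard error 0.21, edgeR p = 0.107) became 0.61 without Low MB pig 4, where the unadjusted p-value passed 0.05, and by class it was 0.66 (deep) and 0.17 (standard), with an exact permutation p = 0.0779 over the 12 pigs.

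LOXL2 (ENSSSCG00000033608), which cross-links the collagen IV of basement membranes, lies on chromosome 14 from 7435861 to 7540699. It had 9.37 to 17.4 CPM (median 10.9) in High MB muscle, against 3.72 to 12.7 CPM (median 8.01) in Low MB muscle. The lowest 4 pigs were of the Low MB group, and Low MB pigs 4 and 6 reached the level of the High MB group. Its log2 FC was 0.53 (standard error 0.28, edgeR p = 0.0747), and by class 0.45 (deep) and 0.59 (standard), with an exact permutation p = 0.0779 over the 12 pigs. Over the 12 fits without 1 pig it was between 0.38 (without Low MB pig 1) and 0.71.

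Levels of different genes were compared per kilobase of RefSeq exonic sequence, which may differ from the annotation used for counting. On this scale, the median over the 12 pigs was 27.0 CPM per kb for TIMP3, 11 for MMP2, 6.83 for TIMP1, 4.35 for LOX, 3.77 for MMP14, 2.96 for ADAMTS1, 2.67 for LOXL2, 2.31 for MMP19 and 1.90 for LOXL1. TIMP3 was above MMP2 in 12 of 12 pigs, and TIMP1 was above LOX in 12 of 12. The neighbors in the rest of the order changed places between pigs: MMP2 was above TIMP1 in 8 of the 12, LOX above MMP14 in 9 and MMP14 above ADAMTS1 in 6. By the median, the transcript of an inhibitor thus had the highest level per length, and those of MMP19 and LOXL1 the lowest. At the low end ADAMTS1 was above LOXL2 in 7 of the 12, LOXL2 above MMP19 in 7 and MMP19 above LOXL1 in 9. The lowest single value, 0.995 CPM per kb, was that of LOXL2.

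MMP2, MMP14, MMP19 and LOXL2 had the highest correlations of the 9 genes over the 12 pigs. The Pearson r of their log2 CPM over the 12 pigs was between 0.73 (MMP2 with MMP19) and 0.86 (MMP2 with MMP14, and MMP14 with LOXL2), and over the 12 pigs no other of the 36 pairs of the 9 genes had an r over 0.7. Without High MB pig 2 and Low MB pig 4, MMP2 with LOXL1 had r = 0.72, above the 0.70 of MMP2 with MMP19. The median over the 36 pairs was 0.41. As both groups enter these values, the group difference adds to them. With the group means removed, a check added after the data were seen, the 6 pairs had an r between 0.59 and 0.80, and within the 6 Low MB pigs between 0.76 and 0.92. Within the 6 High MB pigs it was lower for each of the 6 pairs, between -0.22 (MMP2 with MMP19) and 0.72 (MMP14 with LOXL2), a difference between groups that was not tested. Other pairs were above all 6 of these in the High MB pigs, namely MMP19 with ADAMTS1 (0.91), TIMP1 with LOXL2 (0.87), MMP19 with TIMP1 (0.80) and LOX with LOXL1 (0.75). All values share the same libraries and scaling factors. Of the 3 pairs tested, MMP2 with MMP14 had r = 0.86 (permutation p = 0.00026, adjusted over the 3 pairs 0.00078) and a Spearman rho of 0.87 (permutation p = 0.00061, adjusted 0.00183). Without the 2 pigs farthest from the median of MMP2 it had r = 0.94, and within the 7 standard libraries r = 0.84 (permutation p = 0.0222). With the group means removed its r was 0.79 (permutation within groups, p = 0.00675, adjusted 0.0202), with 0.57 within the High MB and 0.89 within the Low MB group. LOX with LOXL1 had r = 0.37 (permutation p = 0.235, adjusted 0.26) and rho = 0.32 (permutation p = 0.309, adjusted 0.463), with r = 0.34 without the 2 pigs farthest from the median of LOX and 0.17 in the standard libraries. Its r was 0.09 with the group means removed (permutation p = 0.77), from 0.75 within the High MB and -0.52 within the Low MB group, and the difference between the groups was not tested. TIMP1 with ADAMTS1 had r = 0.40 (permutation p = 0.26, adjusted 0.26) and rho = -0.04 (permutation p = 0.905, adjusted 0.905), and this r rested on High MB pig 2, since it was -0.16 without that pig and Low MB pig 6. With the group means removed it was 0.41 (permutation p = 0.422). No r was computed within the 5 deep libraries.

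**Figure D4:**
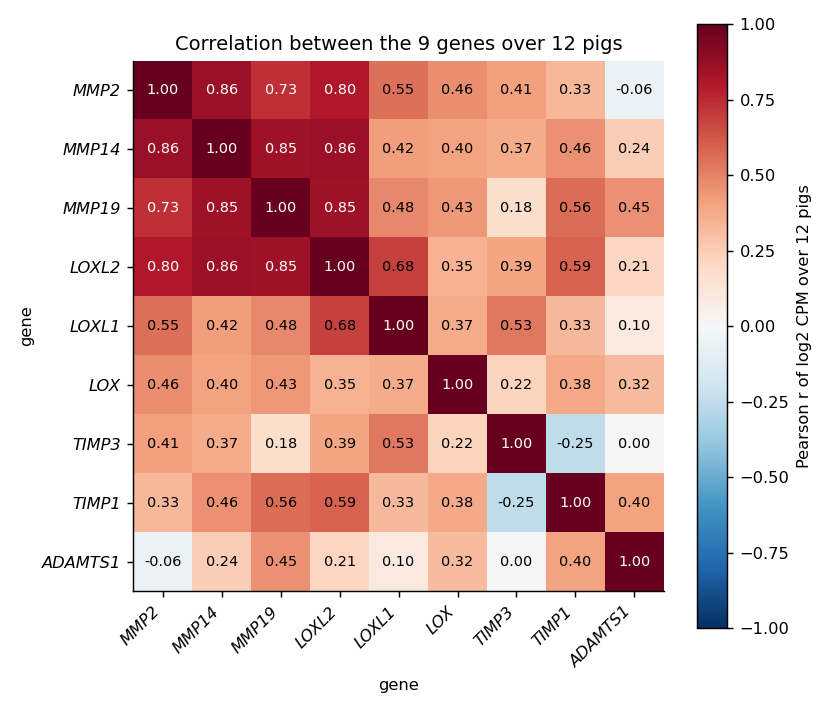
Pearson r of log2 CPM over the 12 pigs for each pair of the 9 genes, on a color scale from -1 to 1. MMP2, MMP14, MMP19 and LOXL2 had r between 0.73 and 0.86 with each other, while ADAMTS1 had an r of -0.06 with MMP2 and TIMP1 an r of -0.25 with TIMP3.

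The 250 bases before the annotated RefSeq start of these 4 genes are shown, read from the Sscrofa11.1 assembly on the coding strand from 5′ to 3′, because these genes had the highest correlations with each other over the 12 pigs. Capitals mark a GC box (GGGCGG), an AP-1 site (TGANTCA) or a TATA box (TATAAA) found on either strand, where matches of a motif may overlap.
MMP2, chr6:30087032-30087281, minus strand: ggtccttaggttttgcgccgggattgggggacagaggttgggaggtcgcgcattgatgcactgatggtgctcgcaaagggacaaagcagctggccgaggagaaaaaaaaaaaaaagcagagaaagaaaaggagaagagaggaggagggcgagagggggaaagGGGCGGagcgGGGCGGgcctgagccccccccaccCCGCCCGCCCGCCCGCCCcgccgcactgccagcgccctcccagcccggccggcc
MMP14, chr7:76185932-76186181, minus strand: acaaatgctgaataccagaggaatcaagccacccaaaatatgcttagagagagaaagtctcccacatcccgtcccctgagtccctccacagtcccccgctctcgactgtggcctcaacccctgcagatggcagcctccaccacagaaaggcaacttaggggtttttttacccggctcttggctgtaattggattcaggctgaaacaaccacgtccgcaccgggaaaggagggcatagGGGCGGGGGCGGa
MMP19, chr5:21285944-21286193, minus strand: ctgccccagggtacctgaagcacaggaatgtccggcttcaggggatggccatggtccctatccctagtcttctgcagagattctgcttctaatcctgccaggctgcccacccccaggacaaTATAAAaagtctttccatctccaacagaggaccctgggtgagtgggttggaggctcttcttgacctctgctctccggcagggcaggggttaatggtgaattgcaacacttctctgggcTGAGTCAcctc
LOXL2, chr14:7540700-7540949, minus strand: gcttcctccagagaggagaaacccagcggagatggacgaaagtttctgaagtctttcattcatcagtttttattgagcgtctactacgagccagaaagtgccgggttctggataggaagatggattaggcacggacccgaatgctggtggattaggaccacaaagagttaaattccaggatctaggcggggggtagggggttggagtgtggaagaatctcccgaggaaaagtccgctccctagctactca
The window of MMP2 holds 6 GC boxes and that of MMP14 holds 2, whereas neither MMP19 nor LOXL2 has any. MMP19 has a TATA box from 129 to 124 bases and an AP-1 site from 11 to 5 bases before its start, and no match of the 3 motifs was found in the window of LOXL2. A GC box was present before 4 of the 9 genes (MMP2, MMP14, TIMP3 and LOX) and in 45.9% of the 19556 windows of the same length before protein-coding genes, an AP-1 site before 1 of the 9 and in 5.27% of the windows, and a TATA box before 1 of the 9 and in 9.77%. None of the 3 motifs was thus found in all 4 windows shown.

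Among the genes outside the 9, the 3 most similar to each were taken by Pearson r of log2 CPM over the 12 pigs, as a description. For MMP2 they were NUMBL (r = 0.95), OSTF1 (0.93) and PCOLCE (0.92), the last of which codes for an enhancer of procollagen processing. LOXL2 was most like MANSC1 and COL6A3 (both r = 0.95), the latter a collagen VI chain, and LTBP1 (0.94), which binds latent TGF-beta. MMP14 had FAM114A1 and CDR2L (both 0.97) and the matrix peroxidase PXDN (0.96), and MMP19 had NCOA7 and NRP2 (both 0.93) and the prostaglandin transporter SLCO2A1 (0.92). TIMP3 was closest to FBLN5 (0.94), an elastic fiber protein, followed by ETV1 (0.87) and ADGRF5 (0.86). LOX had the protein C receptor PROCR (0.88), SMURF1 (0.86) and EPB41L3 (0.82), the last of which had an r of only 0.17 within the Low MB group and 0.93 within the High MB group. LOXL1 was most like the thrombin receptor F2R (0.90), PLEKHO1 (0.88) and CLBA1 (0.87). ADAMTS1 was most like DUSP1 (0.91), an immediate early phosphatase gene, ZFC3H1 (0.90) and ZBTB41 (0.90). DUSP1 was at 274 and 300 CPM in High MB pigs 1 and 2, where ADAMTS1 was highest too, and between 43.5 and 215 CPM in the other pigs.

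Within the groups, the 9 genes were also set against the myoglobin content of each pig with edgeR. The slope was tested beside the group term. None of the 9 and 0 (0%) of the genes tested had an adjusted p-value under 0.10, and 3.85% of all genes had an unadjusted p-value under 0.05. Of the 9 genes 1 did, MMP19, with a slope of -1.87 in log2 CPM per mg/g (standard error 0.86, adjusted p = 1 in edgeR), opposite in sign to its group difference. The slope was negative for 7 of the 9 genes, and among the other 8 it ranged from -1.78 (MMP14) to 1.12 (LOXL1). With the depth class as a covariate the unadjusted p-value of the MMP19 slope was no longer under 0.05.

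The other genes of matrix turnover were taken from lists by function, and edgeR called 0 of them. Of 19 other matrix metalloproteinases, 16 had a row and 7 were tested, of which 4 had the higher mean in High MB pigs and 3 the lower, with a median log2 FC of 0.01 and none at an unadjusted p-value under 0.05. The median was between -0.17 (without High MB pig 3) and 0.18 (without Low MB pig 5) with 1 pig left out, and MMP23B and MMP28 were at that limit, both higher, without High MB pig 2 or without Low MB pig 6. MMP23B alone was so without High MB pig 1, and without High MB pig 3 it was higher and MMP24 lower at that limit. MMP15 (27.3 ± 10.7 CPM in the High and 27.1 ± 6.55 CPM in the Low MB group, SD, n = 6 each) and MMP11 (15.2 ± 5.66 and 12.9 ± 4.57 CPM) were the highest of them, and the neutrophil and macrophage proteases MMP8, MMP9 and MMP12 had at most 7, 6 and 4 counts in any pig. Of the 15 other ADAMTS proteases tested 12 were higher (46.9% of all genes), with 2 at an unadjusted p-value under 0.05 (5.33% of all genes in that direction). With 1 pig left out this was between 1, without Low MB pig 1, and 4, without Low MB pig 5 or 6. Lower at that limit were ADAMTS20 without Low MB pig 1 and ADAMTS8 (log2 FC -1.01 with all pigs) without High MB pig 6, Low MB pig 3 or Low MB pig 4. With all pigs, the 2 that were higher at that limit were ADAMTS2 and ADAMTS10. ADAMTS2, the procollagen N-proteinase, had a log2 FC of 0.75 (adjusted p = 0.563 in edgeR). ADAMTS10, a protease of fibrillin microfibrils, had a log2 FC of 0.55 (adjusted p = 0.563 in edgeR). Among 6 other inhibitors, TIMP4 was at a log2 FC of 0.74 (adjusted p = 0.563, with 0.40 in the deep libraries and 1.27 in the others), and RECK, an inhibitor anchored in the cell membrane, at 0.04. The remaining lysyl oxidase, LOXL3, had 5.89 ± 1.24 CPM in the High MB group and 5.12 ± 0.785 CPM in the Low MB group (SD, n = 6 each), a log2 FC of 0.20 that was 0.11 without High MB pig 2. In plasminogen activation, the tissue activator PLAT had a log2 FC of 0.42 (adjusted p = 0.563), and 3 of the 4 genes tested were higher.

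The enzymes that mature collagen were split. Of 16 tested, 10 were higher and 6 lower, with a median log2 FC of 0.12, and those at an unadjusted p-value under 0.05 were the procollagen enhancers PCOLCE (log2 FC 0.62) and PCOLCE2 (0.65) and the collagen chaperone FKBP10 (0.48), with adjusted p-values from 0.563 to 0.578. With 1 pig left out PCOLCE stayed at that limit in 12 of the 12 fits, PCOLCE2 in 4 and FKBP10 in 5. The split moved with single pigs as well, to 8 of 16 higher with a median of 0.01 without High MB pig 2, where P4HA2 was lower at that limit, and to 13 of 16 without Low MB pig 2. Without Low MB pig 1, P4HA1 was lower at that limit. The prolyl hydroxylase subunits P4HA1, P4HA2 and P4HA3 had log2 FC of -0.23, -0.29 and -0.47, none at that limit. The value of P4HA3 rested on Low MB pig 2, at 5.38 CPM, and was 0.06 without it, and P4HA1 and P4HA2 were at -0.10 and -0.12 without Low MB pig 4. The substrates, by contrast, were higher in the High MB group in 16 of 16 tested genes, with a median log2 FC of 0.59, and 9 of them had an unadjusted p-value under 0.05, where 5.33% of all genes did in that direction. ELN (elastin) had the largest difference of these substrates, with 31.8 ± 10.5 CPM in the High MB group and 17.2 ± 7.20 CPM in the Low MB group (SD, n = 6 each, log2 FC 0.89, adjusted p = 0.563). The collagen I chains COL1A2 and COL1A1 followed the same direction, at log2 FC of 0.71 and 0.67. FN1 (fibronectin) and the proteoglycan gene FMOD were both at 0.74, and the others at an unadjusted p-value under 0.05 were BGN, VCAN, COL5A2 and COL6A1, with log2 FC from 0.37 to 0.65. VCAN was at 0.32 without High MB pig 2, where it had 37.9 CPM against at most 20.7 CPM elsewhere. FN1, with 144 CPM in that pig and at most 93.8 CPM elsewhere, was at 0.52 without it and no longer at that limit. Over the 12 fits that leave a pig out, FN1 was at that limit in 6 and COL1A1 in 5. Without High MB pig 6, BGN was at 0.42 and FMOD at 0.46. With 1 pig left out the substrates were higher in 16 of 16 in each fit, but the number at that limit was between 2 (without Low MB pig 1 or 3) and 12 (without Low MB pig 6), and it was 5 without High MB pig 2.

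**Figure D5:**
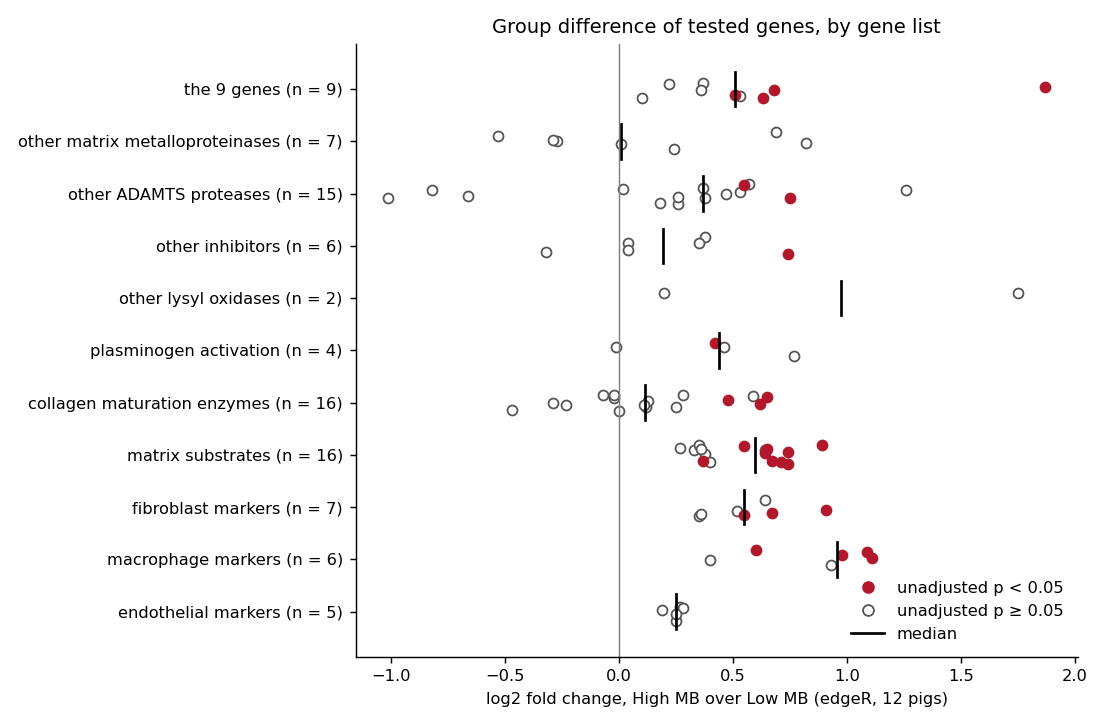
Log2 fold change between the High and Low MB groups of the tested genes of each list, 1 point per gene, filled where the unadjusted edgeR p-value was under 0.05, with a line at the median of the list. The 16 matrix substrates all lay above 0, while the 7 other matrix metalloproteinases lay on both sides with a median of 0.01.

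Markers of cells that make or remodel matrix had higher means in the High MB pigs, although 4 of the 7 fibroblast markers (COL1A1, COL3A1, DCN and LUM) are substrates counted above. The 7 fibroblast markers with a row summed to 564 to 995 CPM (median 754) in High MB muscle, against 297 to 736 CPM (median 551) in Low MB muscle, with 7 of 7 higher and 3 at an unadjusted edgeR p-value under 0.05 (PDGFRA, COL1A1 and DPT). Over all genes tested 46.9% were higher and 5.33% were higher at that limit, against which the counts of each marker list are to be read. None of the 7 fibroblast markers was at 0 in any pig. Their number at that limit was between 1 (without Low MB pig 1) and 6 (without Low MB pig 6), and PDGFRA had a log2 FC of 0.91 with all pigs and 0.52 without High MB pig 2. The 3 markers that are not substrates (PDGFRA, DPT and CD34) summed to 34.1 to 56.4 CPM in High MB muscle and 23.7 to 34.6 CPM in Low MB muscle, groups that overlapped only between High MB pig 3 and Low MB pig 5. Low MB pigs 1 and 3, the lowest for MMP2, MMP14, MMP19 and LOXL2, had the lowest sums of all 7 markers (297 and 304 CPM), which COL3A1 and COL1A1 dominate. Over the 3 markers that are not substrates, Low MB pig 1 was the lowest at 23.7 CPM, whereas Low MB pig 3, at 30.0 CPM, was above Low MB pigs 2 and 4. The macrophage markers were higher in 6 of 6, with 4 at an unadjusted p-value under 0.05 (CSF1R, AIF1, MRC1 and CD163), and summed to between 34.3 and 109 CPM in the High and between 20.8 and 43.4 CPM in the Low MB group. Without High MB pig 2 the highest High MB sum was 55.4 CPM, 2 markers (CSF1R and AIF1) remained at that limit, and the log2 FC was 0.55 for CD163 (1.09 with it), 0.59 for MRC1 (0.98), 0.69 for AIF1 (1.11), 0.09 for CD14 (0.93) and 0.07 for CD68 (0.40). The endothelial markers were higher in 5 of 5 with 0 at that limit (from 122 to 167 CPM in the High and from 76.2 to 183 CPM in the Low MB group), the mural cell markers in 6 of 6 with 1, CSPG4 (from 169 to 661 and from 136 to 364 CPM), and the adipocyte markers in 5 of 5 with 2, FABP4 and CIDEC (from 55.3 to 229 and from 35.8 to 199 CPM). The mural sum of 661 CPM was that of High MB pig 6 alone, the next High MB pig being at 316 CPM, and without it 4 of 6 mural markers were higher with 0 at that limit, as MYH11 went from 0.86 to -0.66 and ACTA2 from 0.36 to -0.36. Without Low MB pig 5 the endothelial markers at that limit were 3 of 5 (PECAM1, CDH5 and TEK) and the adipocyte markers 5 of 5, and without Low MB pig 1, among others, the adipocyte markers were 1 of 5. The 3 lymphocyte markers tested were higher with 0 at that limit (from 1.6 to 3.03 and from 0.975 to 2.62 CPM), and both red blood cell markers tested, HBB and ALAS2, were higher with unadjusted p-values under 0.05 (from 66.7 to 146 and from 38.3 to 84.4 CPM). Of the 4 fiber markers tested 1 was higher and 3 were lower. In these bulk samples more cells of a type cannot be told apart from more RNA per cell, and the part of these cells in the differences of the 9 genes was not tested.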

How the data were processed

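RNA-seq of LD muscle from 12 pigs was analyzed, with 1 library per pig and groups taken from the sample titles. The authors trimmed the reads with TrimGalore, aligned them with hisat2 to Sscrofa11.1 and deposited the raw counts per gene from htseq-count, without normalization. The annotation release and the strand setting are not given in the sources used here, reads placed at several sites or on several genes were kept apart from the gene counts, and between 47.0% and 48.2% of uniquely placed reads were assigned to a gene. The counts per transcript were not used. Gene counts summed to between 38914271 and 91318334 per pig.

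The main test was edgeR 4.0.16 (filterByExpr, TMM, quasi-likelihood, no covariate) in R 4.3.3, adjusted over the 13373 genes tested. DESeq2 1.42.0, the tool of the study, was an alternative. The standard error came from the test statistic. The edgeR script was tested on simulated data. Log2 CPM used a prior count of 2, and exact permutation tests used the 924 splits of 12 pigs into 6 and 6, with 0.00216 as the smallest p-value they allow. Correlation tests used 100000 resamples. The other 2 planned pairs needed TIMP2. Correlations with the group means removed were added after the data were seen. P-values of group differences and slopes judge them against the variation between pigs, and those of correlations test the association over pigs.

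Alternatives were other size factors, filters, thresholds and prior counts, robust estimation, the depth class as a covariate, fits within each class, a block for the individual number, normalization without the 10 most counted genes, breeding value in place of myoglobin content, and pigs left out. Fits on fewer pigs kept the same genes.

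The 9 genes, the gene lists and the tests were chosen with earlier results of these data known. Named genes were the 9, list genes with an unadjusted p-value under 0.05 or otherwise the most expressed, and the 3 genes most similar to each of the 9. MMP8, MMP9, MMP12, MMP23B, MMP24, MMP28, ADAMTS8, ADAMTS20, RECK, PLAU, the P4HA genes, COL3A1, DCN, LUM, CD34, MYH11, ACTA2, CD14, CD68, PECAM1, CDH5 and TEK were named after their values were seen. Symbols were paired with 14857 of the 25880 genes. Positions and sequences came from RefSeq annotation of Sscrofa11.1.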

Additional observations from a re-analysis of the deposited data

Results flagged for a closer look

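TIMP1 in High MB pig 2, at 87.6 CPM, lay far from the other pigs of its group, since its gap to the next pig (7.05 CPM) was 0.97 of the range of the group, above Dixon's critical value for 6 samples. LOXL1 in Low MB pig 4, at 7.28 CPM, was flagged in the same way, with a gap of 0.734 of the range to the next pig at 4.30 CPM. Of the 18 groups of 6 values tested, chance would flag about 1 in 20.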

How the results depend on the processing

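None of the 9 genes was called under any alternative tried. Of 225 log2 FC values recomputed for the 9 genes, 224 kept their sign, and the smallest adjusted p-value was 0.276 (LOX with DESeq2). The exception in sign was ADAMTS1, which was -0.034 without High MB pig 1 and between that value and 0.38 with each pig left out. Over all genes, edgeR called 0, within the deep libraries 1, and DESeq2 with its defaults 29; the cause was not tested. The median log2 FC of all genes moved from -0.02 to 0.08 with library size alone. Between 2 (without High MB pig 2) and 6 (without Low MB pig 6) of the 9 genes had an unadjusted p-value under 0.05 when a pig was left out. Of the 13373 genes tested, 1389 and 1444 were at that limit in these 2 fits, against 1132 with all pigs. Within the deep class it was 2 of the 9 (403 of all tested), and within the standard class 3 (860). DESeq2, which gave no p-value for TIMP1, had 3 of the 9 and 1454 of the 25880 genes listed at that limit. With the individual number as a replicate block, 4 of the 9 (MMP2, MMP14, LOX and LOXL2) and 957 of all tested genes were at that limit. In that edgeR fit 0 of the 9 were called, and MMP2 had an unadjusted p-value of 9e-05, MMP14 0.0113 and TIMP1 0.341. Pigs with the same number did not deviate together (r between -0.212 and 0.144 over genes), so the numbers do not pair the pigs. TIMP1 with ADAMTS1 turned to r = -0.16 without the pair of pigs farthest from the median. No slope on myoglobin content was called with the depth class or with the breeding value in its place. With 0.5 as the prior count, the exact permutation test gave p-values under 0.05 for the same count of 2 genes as with 2.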
